A study of Mus musculus with 22 samples.

Results

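The genes described here are 31 interferon-stimulated antiviral genes, guanylate-binding proteins left aside, in cultured mouse TH2 cells with and without calcitriol, the form of vitamin D that binds the vitamin D receptor. They were taken by symbol from a table of 49671 Ensembl genes, and all 31 were found in it. The libraries came from wild-type Balb/c TH2 cells harvested at day 5 of polarization. Over the last 24 hours the cells of the vehicle group, 11 libraries, received 2% ethanol as the solvent control. Those of the calcitriol group, 11 libraries, received 100 nM calcitriol, and no ethanol content is given for them in the sources used here. The mice behind both groups were of both sexes, had been obtained at 6 to 8 weeks of age, and were bred for generations on feed with 400, 1000 or 4000 IU of vitamin D3 per kg. The labels do not tie a mouse, sex, diet or culture to a library. They also give no replicate numbers, and those used here were assigned within each group in the order of the deposit. The comparison asks which of these genes the hormone changes in TH2 cells, and its p-values rest on how far libraries of a group spread, which may be partly technical.

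Type I and type II interferons act through receptor-bound Janus kinases that phosphorylate STAT proteins. A complex that holds STAT2 and IRF9 binds the interferon-stimulated response element (ISRE), and the gamma-activated site (GAS) is another DNA element of the response. The target genes encode sensors of foreign nucleic acid, enzymes that degrade or modify viral RNA, GTPases that act on pathogens or their vacuoles, and the transcription factors and inhibitors that set the size of the response. T cells keep a low basal level of many of these genes without infection.

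The letters of the ISRE were found in promoters of members that fell, rose and were not called. RefSeq windows on GRCm38.p6, from 250 bases before to 50 bases after the annotated start, matched 24 of the 31 genes (28 windows). The ISRE was searched as GAAA, any 2 bases and GAAA again, on both strands, with overlapping matches each counted. These letters stood in a window of 13 of the 24 genes (54.2%), against 3.98% of 26994 genes with a window. The stretches below show these letters, in capitals, for some of the 13 genes. Up to 25 bases are given on each side, 5′ to 3′ on the strand of the gene. Of the 6 members called lower under every alternative setting described below, only Bst2 and Oas3 are among them. The calls for Isg15, Igtp, Stat2 and Ddx58 were each lost under at least 1 such setting. Isg15, Oas3, Bst2, Igtp and Stat2 fell with calcitriol, Ddx58 rose, Ifih1 and Irgm1 were not called, and Ifit3 was below the filter on low counts.
Isg15 promoter stretch, chr4:156200850-156200921, minus strand: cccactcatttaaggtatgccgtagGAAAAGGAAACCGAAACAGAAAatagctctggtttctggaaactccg
Oas3 promoter stretch, chr5:120777700-120777759, minus strand: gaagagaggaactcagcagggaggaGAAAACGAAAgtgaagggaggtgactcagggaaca
Bst2 promoter stretch, chr8:71537562-71537627, minus strand: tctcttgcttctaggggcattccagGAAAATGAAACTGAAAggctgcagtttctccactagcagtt
Igtp promoter stretch, chr11:58199497-58199556, plus strand: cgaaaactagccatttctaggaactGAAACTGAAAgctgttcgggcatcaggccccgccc
Stat2 promoter stretch, chr10:128270251-128270310, plus strand: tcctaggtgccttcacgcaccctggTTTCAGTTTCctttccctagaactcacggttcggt
Ddx58 promoter stretch, chr4:40239789-40239848, minus strand: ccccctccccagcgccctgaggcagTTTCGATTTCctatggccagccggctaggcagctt
Ifih1 promoter stretch, chr2:62646206-62646248, minus strand: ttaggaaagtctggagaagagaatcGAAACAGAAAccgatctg
Irgm1 promoter stretch, chr11:48871410-48871475, minus strand: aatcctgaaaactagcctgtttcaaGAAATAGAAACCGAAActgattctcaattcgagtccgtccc
Ifit3 promoter stretch, chr19:34583348-34583441, plus strand: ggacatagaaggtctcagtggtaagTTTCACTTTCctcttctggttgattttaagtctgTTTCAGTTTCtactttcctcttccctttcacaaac
Isg15 held 3 overlapping matches, with first bases 78, 72 and 66 bases before the start. Bst2 held 2 overlapping matches at 130 and 124 bases, Irgm1 held 2 at 30 and 24 bases, and Oas3 held 1 at 75 bases. In Ddx58 and Ifih1 the match lay inside the transcribed part of the window, 2 and 32 bases past the start. Ifit3b, a close copy of Ifit3, has the same 94 letters as the Ifit3 stretch. By outcome, 5 of the 7 genes that fell and had a window held the letters, as did 1 of 2 that rose, 2 of 7 that were tested and not called, and 5 of 8 that were not tested. Xaf1 and Irf7 fell without these letters in the window. The GAS letters TTCNNNGAA were found in 6 of 24 genes (25%, against 9.55% of all genes with a window): Bst2, Igtp, Isg20, Irf1, Ifi35 and Oas1a. The direct-repeat vitamin D response element (DR3), searched as a 15-letter pattern, was found in 0 of 24, against 0.293% of all. At so small a share 0 among 24 genes could hardly have come out otherwise, and sites outside the windows were not searched. A match is a string of letters, not a bound site. Zbp1, Rtp4, Oas2, Ifi27l2a, Usp18, Ifi27 and Mx1 were not matched to a window.

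Library totals ran from 3214171 to 20258430 counts with a median of 7504710. Levels are TMM-normalised CPM, that is, counts relative to the library total after scaling for composition. The summed level of 5 general T cell markers (Cd3e, Cd3d, Cd3g, Cd4, Trac) was 1610 to 1940 CPM in vehicle and 1620 to 1970 in calcitriol libraries, with 3 of 5 called higher and 1 lower. The 6 TH2 markers summed to 550 to 936 and 512 to 899 CPM, with 1 of 5 tested called lower. Markers of cells that are rich in interferon-stimulated transcripts were low. The 5 monocyte and macrophage markers summed to 0 to 1.13 and 0.28 to 1.71 CPM, with Fcgr1 at 0 counts in every library. The 5 plasmacytoid dendritic cell markers summed to 5.63 to 12.7 and 9.16 to 20 CPM, with Klk1 at 0. Most of that sum was Tcf4, with means of 9.61 and 12.3 CPM. The 5 conventional dendritic cell markers summed to 6.63 to 10.4 and 3.85 to 9.34 CPM, with Clec9a at 0 and 1 of 2 tested called lower. This was Zbtb46, with means of 4.68 and 2.59 CPM (log2 change -0.9 ± 0.16, edgeR, adjusted p = 5.56e-05). Itgax, at 3.38 and 3.34 CPM, was not called. The part of the Zbtb46 fall in the results was not tested. The 4 B cell markers summed to 1.69 to 6.74 and 1.56 to 5.14 CPM. None of the tested B cell or plasmacytoid dendritic cell markers was called, and none of the monocyte and macrophage markers passed the filter. The epithelial markers Epcam and Krt8 summed to 6.17 to 17.1 CPM in vehicle and 16.1 to 33 in calcitriol libraries. Of these 2, Epcam was called higher, and Krt8 had 1 count over the vehicle and 2 over the calcitriol libraries and was not tested. The part of the Epcam rise in the results was not tested. CD8 T cell markers summed to 3.87 to 8.36 and 2.52 to 9.53 CPM, and NK cell, mast cell and basophil, and erythroid markers to at most 1.14 CPM in any library, with Ncr1 and Hba-a1 at 0.

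Vehicle replicates 3 and 4 stood apart in these genes before any comparison of treatments. Of the 21 members that passed the filter, 21 lay above the vehicle median in replicate 3 and 20 in replicate 4, against 45.8% and 45.5% of all tested genes in those libraries. In the other 9 vehicle libraries between 2 and 13 of the 21 lay above it. For 13 of the 21 members (61.9%) both libraries exceeded the other 9, against 5.27% of all tested genes. Xaf1 reached 23.3 and 18.3 CPM there against 5.4 to 9.95 in the other 9, Irf7 reached 13.9 and 14.7 against 2.9 to 6.69, and Usp18 reached 21.6 and 26.5 against 5.79 to 12.1. The below-filter gene Ifi44 reached 7.58 and 9.47 CPM against 0.341 to 2.19. Transcripts of 7 type I interferon genes gave 1 count in each of these libraries and 0 to 3 in the other vehicle libraries. The B cell marker sum was 6.74 and 4.80 CPM in replicates 3 and 4, the highest values of the group, and its part in these levels was not tested. Within the vehicle group each of these libraries was also the best-correlated partner of the other over all tested genes. This was not particular to them, since replicates 1 and 2, 5 and 6, 7 and 8, and 10 and 11 were such partners too. In the calcitriol group the pairs had the same numbers, and in each group only replicate 9 had no partner. The 11 libraries of a group may therefore not be independent. For calls in which vehicle replicates 3 and 4 both exceeded the other 9 vehicle libraries, the values without them are also given.

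**Figure D1:**
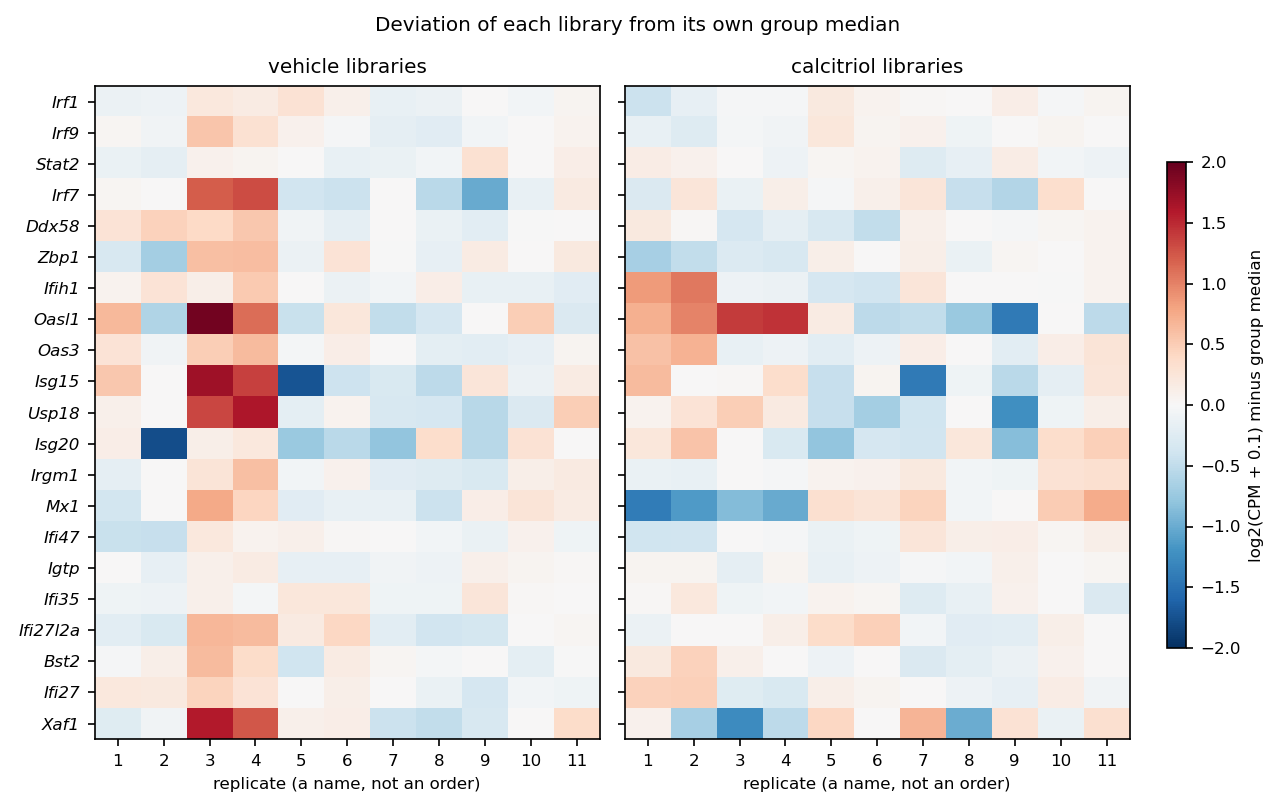
Each square is the log2(CPM + 0.1) of a member in 1 library minus the median of that library's own group, for the 21 tested members (rows, by role) in 11 vehicle and 11 calcitriol libraries (columns). Vehicle replicates 3 and 4 are red for nearly all members, with 21 and 20 of 21 above the group median, whereas in calcitriol replicates 1 to 4 Mx1 is blue and Oasl1 is red.

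In the calcitriol group the members did not share 1 such pattern. Between 3 and 15 of the 21 lay above the group median in a library. Ifih1 was at 59.2 and 68.0 CPM in replicates 1 and 2 and at 25 to 38.5 in the other 9. Mx1 was at 2.94 to 4.28 CPM in replicates 1 to 4 and at 7.55 to 13.3 in the other 7, while Oasl1 was at 2.10 to 3.57 CPM in replicates 1 to 4 and at 0.406 to 1.42 in the others. Mx1 and Oasl1 thus separated the same 4 calcitriol libraries in opposite directions. Replicates 1 and 2 also held the highest values of their group for Oas3, at 16.5 and 17.7 CPM, and for Ifi27, at 69.7 and 70.5.

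With calcitriol, more of the measured antiviral genes fell than rose. Of the 21 members tested with edgeR's quasi-likelihood test, 10 fell (47.6%), 2 rose and 9 were not called at an adjusted p of 0.05, while 10 members had too few counts to be tested. Among all 11905 genes tested 31.5% were called, 15.5% lower and 16.1% higher. The members were chosen with earlier results of these data known, so these shares describe the list and are no test of it. Many members also varied together in vehicle replicates 3 and 4, as given above. The median log2 change was -0.18 over the tested members and -0.01 over all tested genes. The fall was deepest in Xaf1, Oas3, Usp18 and Ifi27, which were reduced by between 2.40 and 4.57 times. In 3 members, Xaf1, Oas3 and Ifi27, all 11 calcitriol libraries lay below all 11 vehicle libraries, where 1.59% of all tested genes were separated in that direction and 4.36% in either, and 0 members were separated upward (2.77% of all tested genes). In bulk RNA, fewer cells that express a gene and less RNA per cell cannot be told apart. Without TMM scaling 31.4% of all calls were higher against 50.9% with it, and 1 member rose and 11 fell. There 35.3% of all tested genes were called.

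**Figure D2:**
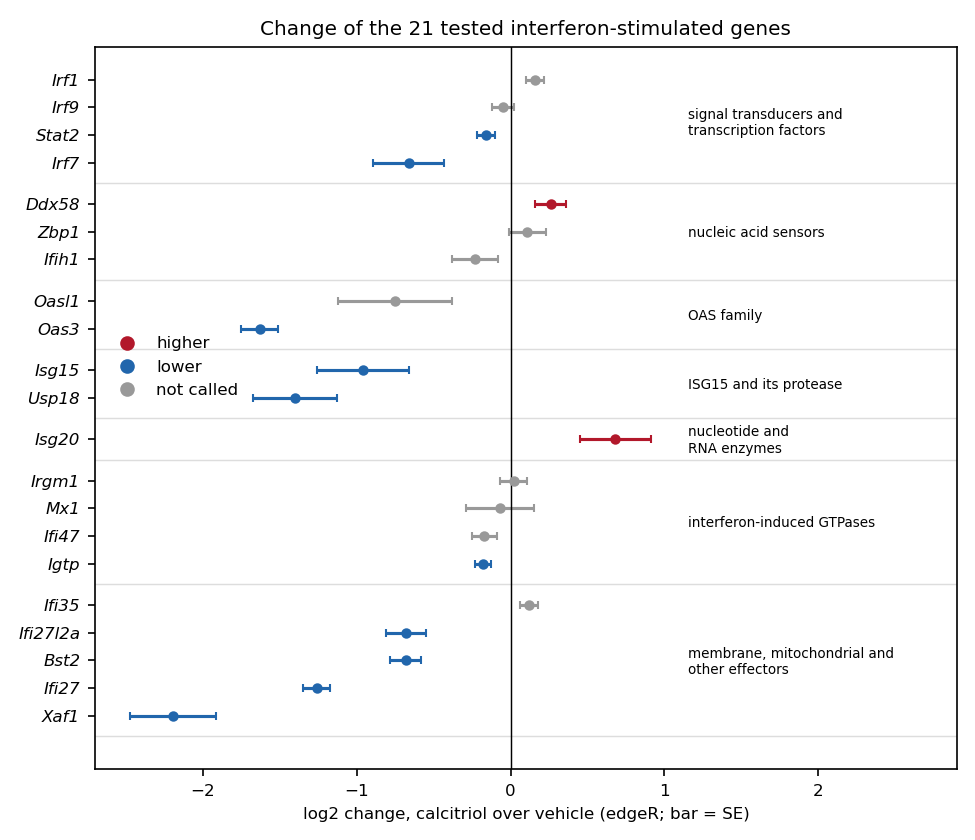
The log2 change of calcitriol over vehicle (x axis; bar, SE from edgeR, 11 libraries a group) is drawn for the 21 tested members, grouped by role, with blue for lower, red for higher and grey for not called. The change runs from -2.19 in Xaf1 to 0.68 in Isg20.

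The calls fell into a firm and a less firm part. Usp18, Xaf1, Ifi27, Bst2, Ifi27l2a and Oas3 were called lower under all 34 alternative settings. The other 6 calls, for Irf7, Stat2, Isg15, Igtp, Ddx58 and Isg20, were each lost under at least 1 of them. All 6 were lost when libraries that resembled each other most within a group were summed, which left 6 samples a group. In that fit 17.9% of all 13161 genes tested were called, against 31.5% in the main fit, so calls were also lost over all genes. Without vehicle replicates 3 and 4, a setting added after the values were seen, 7 members fell and 3 rose, where 30.1% of all tested genes were called. As a description of the filter, Xaf1, Isg15, Isg20 and Oasl1 reached the required 1.33 CPM in fewer than 11 libraries of their lower group, so these members passed it more through the group in which they were higher. For Isg20 (6 vehicle and 9 calcitriol libraries) and Oasl1 (9 and 5) neither group alone reached 11.

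Of the 4 signalling and transcription factor genes, Irf7 and Stat2 fell, and Irf9 and Irf1 were not called. Irf7, the amplifier of type I interferon production, ran from 2.9 to 14.7 CPM in vehicle libraries (median 5.92) and from 2.84 to 5.49 in calcitriol libraries (median 4.32). The groups overlapped, and 1 calcitriol library lay below all vehicle libraries. Its log2 change was -0.66 ± 0.23 (SE; edgeR, adjusted p = 0.0289), but without vehicle replicates 3 and 4 it was -0.26 (adjusted p = 0.217), and the call was also lost when any 1 of vehicle replicates 3 and 4 (adjusted p = 0.0657 and 0.0686) or calcitriol replicates 8 and 9 (0.0511 and 0.0510) was left out. Irf7 overlaps Phrf1 on the other strand, and the strand setting of the counting is not given in the sources used here. Stat2, the STAT of the type I interferon complex, ran from 104 to 145 CPM (median 118) in vehicle and from 89.1 to 118 (median 107) in calcitriol libraries. Its fall of 0.16 ± 0.06 on the log2 scale (adjusted p = 0.0369) was lost without any 1 of 9 libraries, namely vehicle replicates 3, 4, 9 and 11 and calcitriol replicates 4, 7, 8, 10 and 11 (adjusted p = 0.0543 to 0.0820), and without vehicle replicates 3 and 4 together (log2 change -0.14, adjusted p = 0.0890). Irf9, the DNA-binding partner of STAT2, was at 67.8 ± 11.3 CPM (SD, n = 11) in vehicle and 65.4 ± 5.74 (SD, n = 11) in calcitriol libraries (edgeR, adjusted p = 0.674), and its sign turned without vehicle replicate 3. Irf1, which drives interferon gamma targets, had a median of 104 CPM in vehicle (93.6 to 127) and 119 in calcitriol libraries (88.3 to 136), with a log2 change of 0.16 ± 0.06 (adjusted p = 0.0671). It passed the threshold without calcitriol replicate 1 or 2, vehicle replicate 3 or 5 (adjusted p = 0.0105, 0.0486, 0.0423 and 0.0321), and without vehicle replicates 3 and 4 together (log2 change 0.20, adjusted p = 0.0268).

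Of the 3 nucleic acid sensors 1 rose, 0 fell and 2 were not called. Ddx58, which encodes the RNA sensor RIG-I, ran from 50.4 to 85.1 CPM (median 58.5) in vehicle and from 56.9 to 91.6 (median 79.9) in calcitriol libraries. The groups overlapped broadly, with 2 calcitriol libraries above all vehicle libraries. It rose by 0.26 ± 0.10 on the log2 scale (edgeR, adjusted p = 0.0399), and this was lost without any 1 of 14 libraries, namely calcitriol replicates 1, 2 and 7 to 11 and vehicle replicates 5 to 11 (adjusted p = 0.0533 to 0.0745). Without vehicle replicates 3 and 4, which held high Ddx58 values of 76.8 and 85.1 CPM, the log2 change was 0.35 (adjusted p = 0.00431). Ifih1, which encodes the long double-stranded RNA sensor MDA5, ran from 35.3 to 59.3 CPM in vehicle (median 41.4) and from 25 to 68.0 in calcitriol libraries (median 32.7). Although 8 calcitriol libraries lay below every vehicle library, it was not called (-0.23 ± 0.15, adjusted p = 0.252), and replicates 1 and 2 of the calcitriol group were among the highest. Without replicates 1 and 2 of both groups the log2 change of Ifih1 was -0.42 (adjusted p = 0.00147), and without calcitriol replicate 2 alone it was -0.33 (adjusted p = 0.0391). Zbp1, a sensor of Z-form nucleic acid that can start cell death, was at 17.3 ± 4.54 and 18.5 ± 3.17 CPM (SD, n = 11 each; edgeR, adjusted p = 0.557).

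Of the oligoadenylate synthetase family, which makes the oligoadenylate that activates RNase L and includes OAS-like members that act in other ways, Oas3 and Oasl1 passed the filter, and Oas3 fell. Oas3 (ENSMUSG00000032661, chromosome 5, 120753098 to 120777661) ran from 29.1 to 52.4 CPM in vehicle libraries (median 33.7) and from 9.41 to 17.7 in calcitriol libraries (median 10.9). Every calcitriol library was below every vehicle library. The log2 change was -1.63 ± 0.12 (edgeR, adjusted p = 2.46e-11), and without vehicle replicates 3 and 4 it was -1.51. Oasl1, an OAS-like inhibitor of Irf7 translation, had a median of 1.85 CPM in vehicle (1.19 to 7.30) and 1.25 in calcitriol libraries (0.406 to 3.57). Its log2 change of -0.75 ± 0.37 was not called (adjusted p = 0.125), but without calcitriol replicate 4 it was -0.95 (adjusted p = 0.0487), and without vehicle replicates 3 and 4 it was -0.32 (adjusted p = 0.507). Oas1a had 32 counts in the vehicle group and 8 in the calcitriol group, Oasl2 had 21 and 4, and Oas2 had 10 and 2. With no filter on low counts, Oasl2 fell (log2 change -2.08 ± 0.73, adjusted p = 0.0454), a call lost without vehicle replicates 3 and 4 (-1.95, adjusted p = 0.0883) and without any 1 of 14 libraries, namely vehicle replicates 2 to 7 and 11 and calcitriol replicates 3, 5 to 7 and 9 to 11 (adjusted p = 0.0543 to 0.112). Oas1a and Oas2 were at -1.98 ± 0.83 and -1.43 ± 0.81 (adjusted p = 0.124 and 0.293), and Oas1a passed the threshold without calcitriol replicate 1 (-2.73, adjusted p = 0.0222).

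The IFIT genes, whose proteins bind viral RNA that lacks host cap marks or hold it in complexes, were near the lower limit. Ifit1 had 142 counts over the vehicle and 70 over the calcitriol libraries, running from 0.627 to 4.25 CPM (median 1.27) and from 0.302 to 2 CPM (median 0.699). Vehicle replicates 3 and 4 held the highest values, 2.67 and 4.25 CPM against at most 2.05 in the other 9. It was below the filter, and in the fit without that filter it fell by 1.02 ± 0.31 on the log2 scale (edgeR, adjusted p = 0.0183 over 27301 genes). Without vehicle replicates 3 and 4 the log2 change of Ifit1 was -0.61 ± 0.32 (adjusted p = 0.229), and without replicate 4 alone it was -0.77 (adjusted p = 0.0927), so the call was lost in both. Ifit3 had 14 and 13 counts, and Ifit3b had 0 in every library, which allows up to 3 counts over a group, or 0.0318 CPM in vehicle and 0.0316 in calcitriol libraries. The 2 annotated copies share 51.2% of the 50-base words of the Ifit3 transcripts, so reads from that share cannot be assigned to 1 copy and both counts are uncertain.

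Isg15 and Usp18 both fell. Isg15 encodes the ubiquitin-like modifier of the interferon response, and Usp18 the protease that removes it and that also blocks signalling at the type I receptor. Usp18 (ENSMUSG00000030107, chromosome 6, 121245906 to 121270917) ran from 5.79 to 26.5 CPM in vehicle libraries (median 8.53) and from 1.87 to 6.42 in calcitriol libraries (median 4.53). In 10 of 11 calcitriol libraries it was below every vehicle library. Its log2 change was -1.40 ± 0.27 (edgeR, adjusted p = 0.000284), and -0.96 without vehicle replicates 3 and 4 (adjusted p = 0.000126). Isg15 (chromosome 4, 156199424 to 156200818), whose promoter stretch held 3 ISRE matches, ran from 1.33 to 15.2 CPM (median 4.61) in vehicle and from 1.14 to 5.04 (median 3.22) in calcitriol libraries. The groups overlapped, with 1 calcitriol library below all vehicle libraries, and the log2 change was -0.96 ± 0.30 (adjusted p = 0.0158). Without vehicle replicates 3 and 4, at 15.2 and 12.1 CPM, it was -0.49 (adjusted p = 0.0989). A lincRNA, Gm44148, overlaps Usp18 on the other strand, where counting without strand could not separate them.

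Among the nucleotide and RNA enzymes, Isg20, the only 1 of 3 that was tested, rose. This exonuclease degrades single-stranded RNA. It ran from 0.341 to 1.83 CPM in vehicle (median 1.41) and from 1.14 to 3.22 in calcitriol libraries (median 2.14), with 130 and 190 counts in all, and 6 calcitriol libraries were above every vehicle library. Its log2 change was 0.68 ± 0.23 (edgeR, adjusted p = 0.0232), and 0.75 without vehicle replicates 3 and 4 (adjusted p = 0.0235), but 0.53 without replicates 1 and 2 of both groups (adjusted p = 0.0861). Rsad2, which encodes viperin, the maker of a chain-terminating nucleotide, had only 15 and 20 counts. Cmpk2, a nucleotide kinase, had 113 and 63 counts, with medians of 1.04 and 0.666 CPM, and in the fit without a filter its log2 change was -0.79 ± 0.32 (adjusted p = 0.0907). It was -0.56 without vehicle replicates 3 and 4 (adjusted p = 0.319), and it passed the threshold without vehicle replicate 1 or calcitriol replicate 11 (-0.89 and -0.96, adjusted p = 0.0434 and 0.0390).

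The interferon-induced GTPases had log2 changes from -0.18 to 0.02, and 1 of 4 was called. Igtp, also known as Irgm3, a GTPase that marks host membranes, ran from 174 to 218 CPM (median 195) in vehicle and from 152 to 184 (median 172) in calcitriol libraries. In 6 calcitriol libraries it lay below every vehicle library, and it fell by 0.18 ± 0.05 on the log2 scale (edgeR, adjusted p = 0.00466). The call held without vehicle replicates 3 and 4 (adjusted p = 0.0247) and was lost with resembling libraries summed (log2 change -0.18, adjusted p = 0.0612). Irgm1, a related regulator of the family, was at 58.3 ± 11.7 and 58.8 ± 6.63 CPM (SD, n = 11 each; edgeR, adjusted p = 0.917), with a sign that turned without TMM scaling. Ifi47, another member of that family, was at 46.8 ± 6.54 and 41.4 ± 5.58 CPM (SD, n = 11 each; edgeR, adjusted p = 0.113), and passed the threshold without vehicle replicate 1 or 2 (log2 change -0.21 and -0.20, adjusted p = 0.0478 and 0.0473). Mx1 had medians of 7.85 and 7.88 CPM (log2 change -0.07 ± 0.22, adjusted p = 0.846), with the wide spread over calcitriol libraries given above. Igtp overlaps Irgm2, and Ifi47 overlaps Olfr56, on the same strand.

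The membrane, mitochondrial and other effectors held the largest fall and the most abundant member. Xaf1 (ENSMUSG00000040483, chromosome 11, 72301629 to 72313733), an antagonist of the apoptosis inhibitor XIAP, ran from 5.4 to 23.3 CPM in vehicle libraries (median 7.67) and from 0.823 to 3.42 in calcitriol libraries (median 2.10). The groups did not overlap. Its log2 change of -2.19 ± 0.28 (edgeR, adjusted p = 1.05e-06), a 4.57-fold fall, ranked as the 64th largest change of all 11905 genes by size, and without vehicle replicates 3 and 4 it was -1.78. Ifi27 (ENSMUSG00000064215, chromosome 12, 103434211 to 103440239), a small mitochondrial and nuclear envelope protein gene, ran from 94.4 to 162 CPM (median 119) and from 40.9 to 70.5 (median 50.6). Again no calcitriol library reached a vehicle library, and the log2 change was -1.26 ± 0.09, or -1.18 without vehicle replicates 3 and 4.

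Ifi27l2a, the neighbour of Ifi27 on chromosome 12 (103442167 to 103443680), fell less. It ran from 319 to 659 CPM (median 416) in vehicle and from 226 to 368 (median 265) in calcitriol libraries, with 9 calcitriol libraries below every vehicle library and a log2 change of -0.68 ± 0.13 (edgeR, adjusted p = 0.000259). Bst2, which encodes tetherin, the protein that holds budding virus at the cell surface, ran from 23.8 to 48.8 CPM (median 31.3) and from 16.8 to 28.3 (median 20.5). In 10 calcitriol libraries it was below every vehicle library, and its log2 change was -0.68 ± 0.10 (adjusted p = 3.1e-06). Both calls held without vehicle replicates 3 and 4, at -0.52 and -0.57. Ifi35, a partner of the STAT-binding protein NMI, was the only tested member of this role group that was not called, at 66.3 ± 6.47 and 72.2 ± 7.44 CPM (SD, n = 11 each; edgeR, adjusted p = 0.13). Ifi44 was below the filter with 196 counts in vehicle and 24 in calcitriol libraries, and in the fit without that filter it fell by 3.04 ± 0.74 on the log2 scale (adjusted p = 0.00625). Most of its vehicle counts came from replicates 3 and 4, and without them the log2 change was -1.73 ± 0.44 (adjusted p = 0.00340). Rtp4 had 5 and 1 counts.

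**Figure D3:**
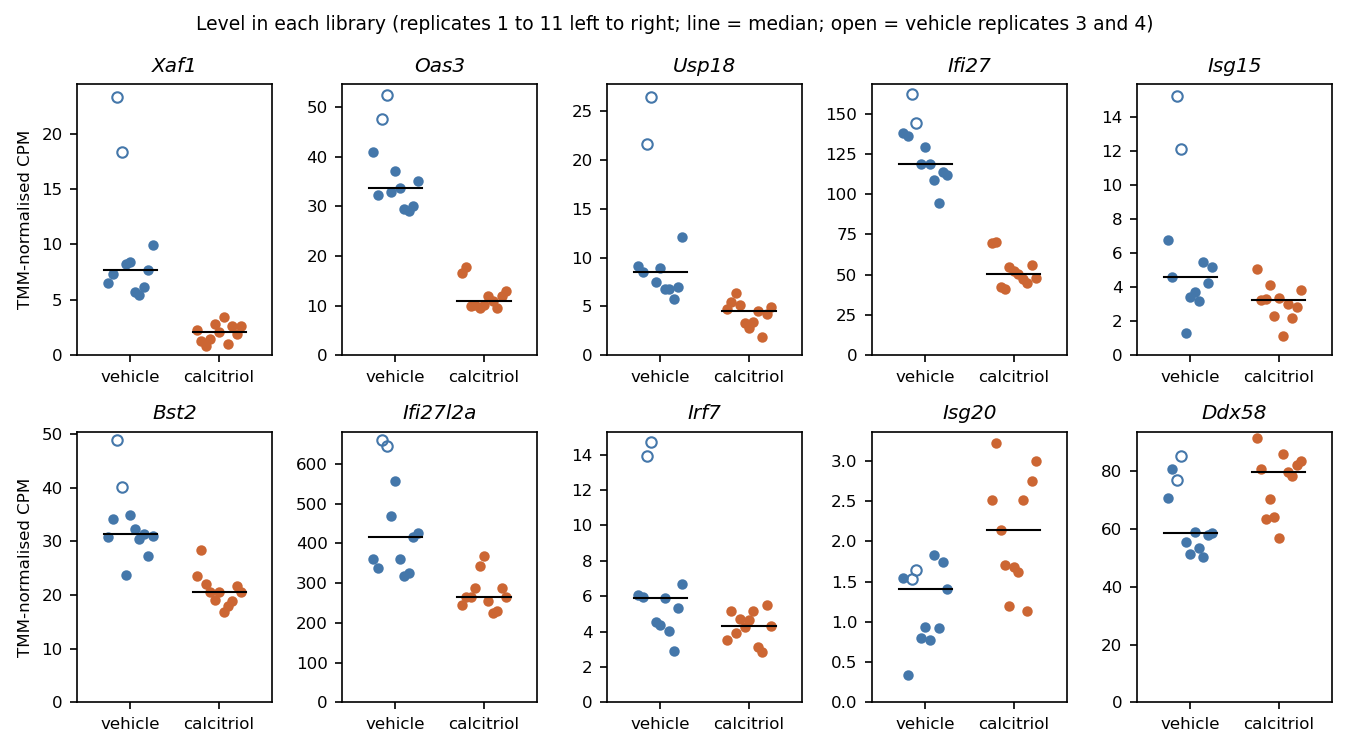
Each panel shows the TMM-normalised CPM (y axis, from 0) of a called member in the 11 vehicle (blue) and 11 calcitriol (orange) libraries, with the group median as a line and vehicle replicates 3 and 4 as open circles, for the 8 deepest falls and both increases. The groups do not overlap for Xaf1, Oas3 and Ifi27, and the open circles lead the vehicle group in all 8 falling genes.

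Levels between members are compared per kilobase of annotated exon. In vehicle libraries the order was led by Ifi27l2a at 958 CPM per kb, followed by Igtp at 95.3, Ifi27 at 85.4, Ifi35 at 38.4, Bst2 at 36.7 and Irf1 at 26.8. Stat2, Ifi47, Irf9 and Irgm1 lay between 19.9 and 10 CPM per kb. Below them came Ddx58, Isg15, Ifih1, Oas3 and Zbp1, at 9.02 to 4.91, and then Usp18 at 3.93, Mx1 at 2.19, Xaf1 at 2.07 and Irf7 at 1.79. The classical antiviral effectors Ifit1, Cmpk2, Oas1a, Ifit3, Rsad2, Oasl2 and Oas2 were all under 1 CPM per kb. So were the tested members Oasl1, at 0.97, and Isg20, at 0.66, and the untested Ifi44, at 0.374, and Rtp4, at 0.0359. With calcitriol Ifi27l2a still led, at 596 CPM per kb, while Ifi27 went to 35.8 and stood below Ifi35, at 41.8. Igtp and Ifi27 in vehicle libraries, and Ifi35 and Bst2, were neighbours whose values per kb were not tested against each other. Called falls occurred from the most abundant member down to Irf7, and the tested members Oasl1 and Isg20 lay below that.

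**Figure D4:**
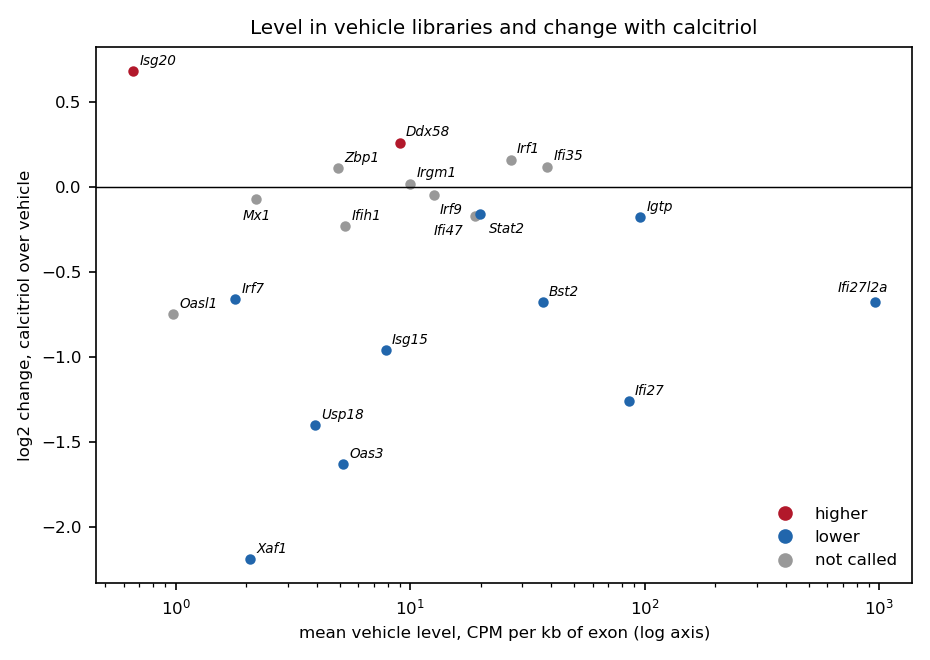
The mean vehicle level per kilobase of exon (x axis, log scale, CPM per kb) is set against the log2 change with calcitriol (y axis) for the 21 tested members, with blue for lower, red for higher and grey for not called. Lower members lie from 1.79 CPM per kb (Irf7) to 958 (Ifi27l2a).

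A separate list of 87 other genes of the interferon pathway, also chosen with earlier results known, was read in the same fit, and 66 of them were tested. Of these, 6 rose (9.09%) and 21 fell (31.8%), against 16.1% higher and 15.5% lower among all tested genes, and their median log2 change was -0.11. The subgroups below hold 5 to 38 tested genes, and their counts are to be read against the same shares. None of the 10 ligand genes passed the filter. Ifnb1 had 3 counts over the vehicle and 0 over the calcitriol libraries, and Ifnl2, the highest, had 23 and 11. Among the receptors 1 of 5 tested rose, the interferon gamma receptor chain Ifngr1 (0.51 ± 0.06), and the type I receptor chain Ifnar1 was at 103 and 92.1 CPM (edgeR, adjusted p = 0.0570). Of the kinases and STATs 2 of 5 rose, Jak2 by 0.64 ± 0.07 and Jak1 by 0.18 ± 0.05 on the log2 scale, and 0 fell. Of the IRF genes that are no members 1 of 5 fell, Irf5 at -0.23 ± 0.06, and Irf4, the lymphocyte factor, was at 1910 and 2080 CPM (adjusted p = 0.0665).

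Of the genes on this list that detect nucleic acid or relay its detection, 4 of 7 tested fell and 0 rose, where 15.5% of all tested genes fell. The count leaves out the 3 sensors among the members, of which Ddx58 rose and 0 fell. Tmem173, which encodes STING, the adaptor of cytosolic DNA sensing, changed by -0.37 ± 0.05 (edgeR, adjusted p = 2.85e-07) with no overlap of the groups, and Trim25, a ubiquitin ligase of the RIG-I pathway, by -0.28 ± 0.06. Of 6 inhibitors 1 rose, Socs3 by 0.54 ± 0.10, and 1 fell, the phosphatase gene Ptpn6 at -0.27 ± 0.04. Among 38 tested interferon-stimulated genes outside the 31 members 15 fell and 2 rose. Samhd1, a deoxynucleotide hydrolase that restricts retroviruses, rose from 758 to 1880 CPM (1.31 ± 0.11, adjusted p = 4.08e-09), and the groups were apart. Eif2ak2, which encodes the RNA-activated kinase PKR, changed by -0.75 ± 0.10 from 35.7 to 21.1 CPM (adjusted p = 1.11e-06), also with the groups apart. Ifitm3, Ifitm1 and Ifitm2, which encode membrane proteins that hinder virus entry and are named here after their values were seen, changed by -2.01 ± 0.26, -1.96 ± 0.52 and -1.14 ± 0.19. In vehicle replicates 3 and 4, 49 and 48 of the 66 other pathway genes lay above the group median, against 12 to 33 in the other 9 vehicle libraries.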

How the data were processed

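RNA was measured in 22 TH2 libraries made with a stranded total RNA kit, per the labels' protocols. The authors deposited raw counts per Ensembl gene, with STAR 2.7.10a, HTSeq 0.13.5 and GRCm38 named without roles, per the submitters' processing notes. Neither the annotation release nor the strand setting is given in the sources used here, and 10 members overlap another gene. Symbols and coordinates came from GENCODE M21 on the same build, and promoter windows from RefSeq (GRCm38.p6).

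Genes were kept with filterByExpr, which asked for 1.33 CPM in 11 libraries and left 11905 genes with 99.7% of the counts. TMM scaling and edgeR 4.0.16 (R 4.3.3; robust quasi-likelihood F test, no covariate, Benjamini-Hochberg adjustment over all tested genes, threshold 0.05) gave the calls. Every p and adjusted p in the text is edgeR's unless named otherwise, and each SE is the log2 change divided by the root of F. The 21 tested members had from 242 vehicle counts in Oasl1, or 130 in Isg20, upward, and counting intervals cover counting error only. On simulated counts (11818 genes) 94.8% of changes of 1 and 71.4% of changes of 0.5 on the log2 scale were recovered, with 4.17% of calls false. The simulated libraries were independent and few genes were changed. In the data libraries resembled each other in pairs and 31.5% of genes were called, so these rates may not carry over.

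Alternatives were DESeq2 1.42.0, limma-voom 3.58.1, other scaling factors and filters, non-robust dispersion, 5 surrogate variables (sva 3.50.0), summed libraries, and libraries left out. Every member is accounted for, and the lowest, median and highest values are given at least for the called members with the 8 largest falls and 8 largest rises and the most abundant of each role. Of the other pathway genes, up to 2 with the smallest p in each subgroup were named. The members and lists were chosen with earlier results of these data known.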

Additional observations from a re-analysis of the deposited data

How the results depend on the processing

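No paired analysis was possible because the labels give no replicate numbers and tie no library to a mouse or culture. Over 34 alternatives, of which 1 was added after the values were seen (vehicle replicates 3 and 4 left out), 6 of the 12 called members were called lower in each. Leaving out 1 library at a time gave 9 to 13 called members, 1 to 3 higher and 8 to 11 lower, with 29% to 31.8% of all tested genes called. With resembling libraries summed, 6 were called, 0 higher and 6 lower, in a fit with 6 samples a group that treats the sets as unrelated. There 17.9% of all 13161 genes tested were called, against 31.5% in the main fit. The number higher was 1 with library totals alone, 1 without a low-count filter, 1 with at least 5 CPM in 11 libraries (where 17 members were tested), and 4 with surrogate variables. Of all tested genes, 35.3% were called with library totals alone and 33.1% with at least 5 CPM in 11 libraries. With surrogate variables 17 members were called, 13 of them lower, where 46.5% of all genes were called, and the gains were Ifi47, Ifi35, Ifih1, Oasl1 and Irf1 (adjusted p = 0.00182, 0.006, 0.0483, 0.000598 and 0.00363). Without the low-count filter 9 of the same 21 members were called, where 13.5% of all 27301 genes tested were called. Of the 10 members below the filter, Ifit1, Ifi44 and Oasl2 were called in that fit. The sign turned for 3 members that were not called. Mx1 was at 0.03 without replicates 1 and 2 of both groups, 0.08 without vehicle replicates 3 and 4, and 0.02 without calcitriol replicate 1 or vehicle replicate 3, with -0.17 to 0.02 over single libraries left out. Irf9 was at 0.05 without vehicle replicates 3 and 4 and 0.01 without vehicle replicate 3 (-0.07 to 0.01 over single libraries left out). Irgm1 was at -0.05 with library totals alone and -0.01 when any 1 of vehicle replicates 7, 8 and 9 and calcitriol replicates 10 and 11 was left out (-0.01 to 0.09 over single libraries). Where the construction does not show it (fewer samples or other genes tested), the cause was not tested. Fits with no low-count filter and libraries left out were also added after the values were seen. In them 2 members at few counts turned sign, Ifit3 (0.04, 0.06 and 0.1 without vehicle replicate 5, 7 or 11) and Rsad2 (-0.19 without calcitriol replicate 10). Depth limits Oas1a, Oas2, Oasl2, Ifit3, Rsad2 and Rtp4, with at most 32 counts over a group, for which a difference was not detectable or rests on few reads.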
